A study of Mus musculus with 2 samples.

Results

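Histone lysine methylation enzyme genes were taken by name from the deposited table of H3K9ac regions. The names were those starting with Kdm, Setd, Mll, Kmt2, Ezh, Suv39, Suv420 or Prdm, and Ehmt1, Dot1l, Whsc1, Whsc1l1, Nsd1, Ash1l, Ash2l, Eed and Suz12, without Kdm1a, Kdm5d and the genes on X and Y. Each gene was represented by its strongest region among those that overlap it, by the mean of both libraries. This gave 43 genes of 10655 autosomal gene symbols with an overlapping region, and all 43 are accounted for below. H3K9ac is acetylation of lysine 9 of histone H3, a mark of active promoters. ChIP-seq, the sequencing of immunoprecipitated chromatin, measured it in leukemic spleen cells of mice that carry the NUP98/HOXD13 fusion, a driver of myelodysplasia and leukemia. A single library came from mice with the human GFI1-36S cDNA (serine at residue 36; strain label Gfi1 36S/S-Nup98/HoxD13) and 1 from mice with the human GFI1-36N cDNA (asparagine; Gfi1 36N/N-Nup98/HoxD13). Age, sex and the number of animals per library are not given in the labels. With 1 library per genotype there is no replicate check, no test of a genotype difference and no p-value. Whole spleens depleted of red cells by lysis hold a mixture of cell types, so fewer cells of a type and less acetylation per cell cannot be told apart.

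Enzymes of this group write or erase methyl groups on histone lysines. Methylation of H3 lysines 4, 36 and 79 is found at active genes, whereas that of H3 lysines 9 and 27 and of H4 lysine 20 is tied to silencing or compaction. Methyltransferases mostly share a SET domain, and DOT1L is the known exception; most demethylases use a Jumonji domain. GFI1 is a repressor that works partly through a lysine demethylase complex, and several enzymes of the group are mutated, translocated or needed in myeloid leukemia. H3K9ac at these genes reports on their promoters and internal regions, not on enzyme activity.

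The libraries held 4989632 reads (36S) and 3292869 reads (36N) in 20615 regions of mm10. The difference given below is 36N minus 36S in log2 units of the deposited values, so −1 is a 2-fold lower value in 36N. Its 95% interval (exact, Clopper-Pearson) covers counting error only. Where the intervals of 2 genes are said not to meet, usual scatter between genes and spread between animals are not taken into account. The level-adjusted difference is the distance from a smooth lowess curve, fitted to differences against the mean of both libraries and called the trend. A difference of 1 log2 unit or more was called lower or higher by size alone. In the marker lists, 8 of 10 myeloid genes had an overlapping region, with 2683 reads in 36S and 2566 in 36N, and all 8 lay above the trend. Of the erythroid genes 5 of 8 were measured, all of them lower by the size rule (2966 and 762 reads), and of the T cell genes 4 of 7, with 3 lower (1054 and 344 reads). Of 6 B cell markers 1, Cd79b, was measured (91 and 83 reads), and of 6 markers of other tissues 1, Gfap (310 and 73 reads). The defining myeloid genes Spi1 and Mpo had no overlapping region under those names. Markers were looked up by the listed name only, so a region filed under an older name or a neighbour would be missed. Over all autosomal genes 53.4% lay above the trend and 12.2% were lower by the size rule. Marker reads are not counts of cells, and whether a difference in cell types enters the values below was not tested.

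Most methylation genes carried less H3K9ac in the 36N library, by about as much as other genes of their level. Of the 43 genes 40 had a negative difference, with a median of −0.71 and quartiles of −0.86 and −0.44. The median over all autosomal genes was −0.56, and 7856 of 10655 were negative. Over the 3804 genes in the interquartile range of the members' levels it was −0.75, with quartiles of −0.92 and −0.57, and 3667 were negative. The interval lay below 0 at 36 of the 43 genes (83.7%, against 62.1% of all autosomal genes) and above 0 at 2 (14.1% of all genes). The first share depends on level: it was 93.1% of the 3804 genes in that range, and from the median level upward 91.6% of all genes and 91.9% of members (34 of 37). By the size rule 4 genes were lower (9.30%, background 12.2%) and 1 was higher (2.33%, background 7.42%). Restricted to levels from the median upward, the backgrounds were 15.0% lower and 0.169% higher (14.7% higher below the median), and of the 37 members there 3 were lower and none higher. After adjustment for level 19 genes lay below the trend (44.2%, background 46.6%, or 54.7% at levels from the median upward) and 24 above it, with a median of 0.02, and 28 were within 0.25 of it. The shares past the size rule and on each side of the trend are near the background. The split of 40 negative and 3 positive differences depended on scaling, being 35 and 8 when centred on the median region and 19 and 24 after quantile normalization.

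**Figure D1:**
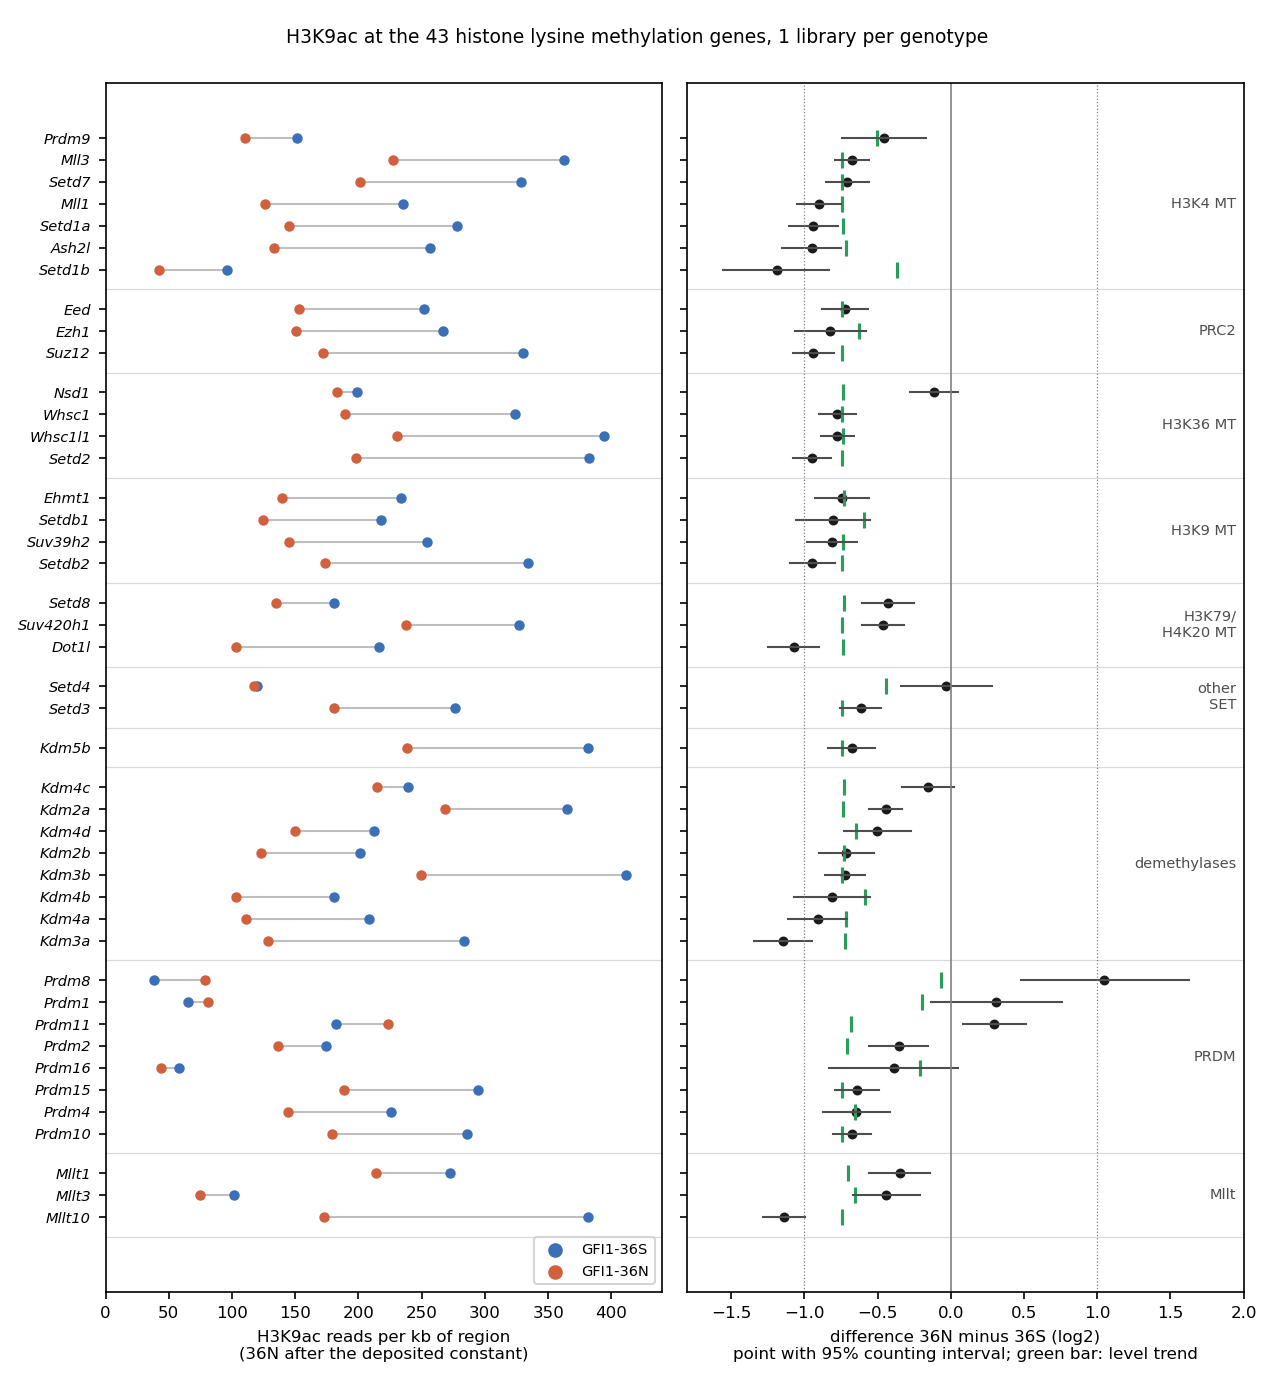
H3K9ac at each of the 43 genes, ordered within role groups (MT, methyltransferase). Left, reads per kb of region in the 36S library (blue) and the 36N library (orange, after the deposited constant); right, the difference on a log2 scale with its 95% counting interval, with the level trend as a green bar and dotted lines at the size rule. Only Prdm8, Prdm1 and Prdm11 lie to the right of 0, and Setd1b, Dot1l, Kdm3a and Mllt10 lie left of −1.

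By their medians the genes were denser and broader H3K9ac sites than all autosomal genes, but only slightly more so than genes of similar level. Regions were 1050 to 4500 bp long (median 2850, against 1950 over all autosomal genes), and the median density was 251.94 reads per kb in 36S and 149.97 in 36N, against 149.26 and 101.56 over all genes. Over the 3804 genes in the interquartile range of the members' levels, the median length was 2700 bp. Their median densities were 229.62 reads per kb in 36S and 138.02 in 36N. Not every member was strong, since 6 of the 43 had a level under that of the median autosomal gene. The densest member in 36S was Kdm3b, with 411.58 reads per kb, and the sparsest Prdm8, with 38.1. Of the 34 members with start sites in RefSeq (GRCm38.p6, the assembly that mm10 names), 32 had their region over at least 1 of them; the exceptions were Prdm8 and Prdm16. Start windows of 300 bases within a region of the gene held a median of 30.5 CpG dinucleotides, against 7.0 over 31396 autosomal start windows, and 67.67% G or C, against 53.0%. All 51 member windows, inside a region or not, held 28.0 and 63.67%. The 31396 windows were not chosen for lying in an H3K9ac region, so members were not compared with other acetylated starts. The start window of Mll3, the strongest member with a start window inside its region, is shown as the extreme case, at 56 CpG dinucleotides and 88.0% G or C. All start windows below run from 250 bases before to 50 after a RefSeq start, 5′ to 3′ on the gene's strand, and capitals mark AATC or its reverse complement GATT, the core of the GFI1 recognition sequence. These letters occur in 73.1% of all autosomal start windows, in 56.9% of the 51 member windows and in 52.4% of the 42 inside a region. The first share is again not restricted to acetylated starts, and a match is not a binding site. The Mll3 window (chr5:25498734-25499033, minus strand) had none:
Mll3: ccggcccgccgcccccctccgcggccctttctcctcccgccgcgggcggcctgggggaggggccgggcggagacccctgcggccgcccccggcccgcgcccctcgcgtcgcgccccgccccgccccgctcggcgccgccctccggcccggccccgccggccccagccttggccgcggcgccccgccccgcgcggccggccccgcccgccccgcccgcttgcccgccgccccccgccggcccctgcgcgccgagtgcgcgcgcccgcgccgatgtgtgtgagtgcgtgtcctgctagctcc

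**Figure D2:**
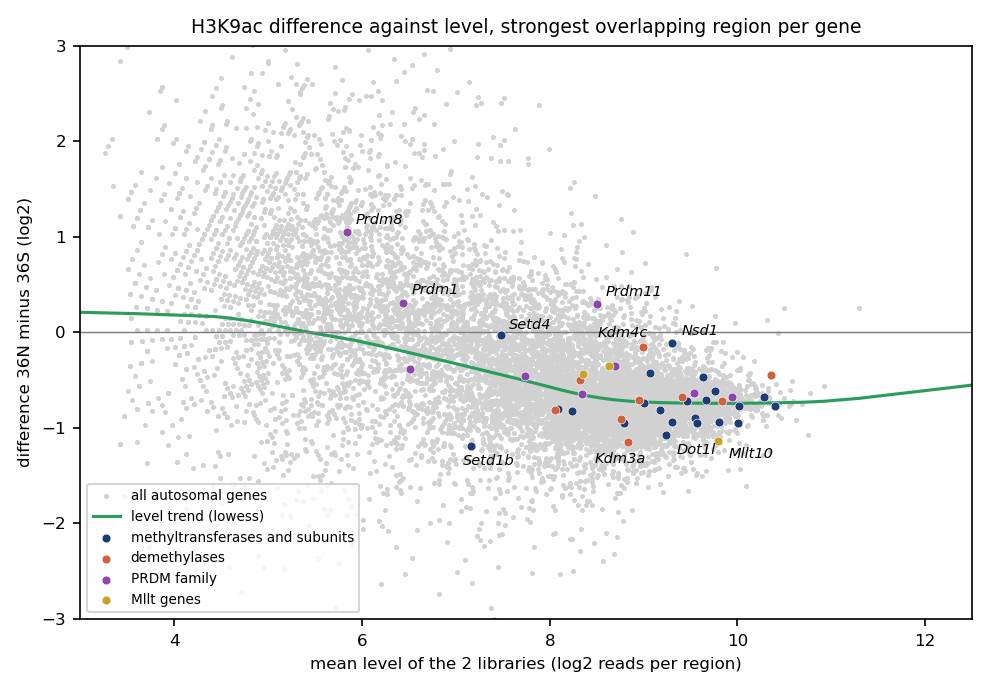
Difference between the libraries (36N minus 36S, log2) against the mean level (log2 reads per region) for the strongest overlapping region of each of 10655 autosomal genes (grey; a few lie outside the axes), with the 43 methylation genes coloured by class and the lowess trend in green. Most coloured points sit on the trend near −0.73 at the right, and Setd1b lies farthest below it, while Prdm8, Prdm11, Nsd1 and Kdm4c lie above it.

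Methyltransferases of H3 lysine 4 were lower in 36N, as were most genes of their level, and Setd1b was the lowest of all 43 genes. All 7 genes of this set had an interval below 0, with a median of −0.90 and 4 of 7 below the trend. An interval below 0 was found at 93.1% of the 3804 genes in the interquartile range of the members' levels and at 62.1% of all autosomal genes. Setd1b and Prdm9 lie under the median level of all genes, so the first share does not cover them. Setd1b encodes a catalytic subunit of the SET1 complexes, which place H3K4 trimethylation at promoters. It had 216 reads in 36S and 93 in 36N (chromosome 5, 123149251 to 123151500), and the difference was −1.19 (95% interval −1.56 to −0.83). Below, reads are given in this order, 36S first, with the difference and its interval in parentheses. The level-adjusted difference of −0.82 was the only one of the 43 more than 0.5 below the trend, as were 10.5% of all genes. This region lies inside the gene, 7211 bp from its nearer RefSeq end. Its paralog Setd1a had 875 and 448 reads over its start (−0.94, −1.11 to −0.77). Ash2l, the core subunit shared by these complexes, had 616 and 313 reads (−0.95, −1.15 to −0.75) in a region 5544 bp inside the gene. A small region of 600 bp lay 457 bp outside it, with 24 and 26 reads.

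The MLL enzymes were lower as well, but near the trend. Level-adjusted differences were −0.16 at Mll1, 0.07 at Mll3, 0.04 at Setd7 and 0.05 at Prdm9. Mll1 (Kmt2a), which maintains Hox gene expression and is broken by translocations in acute leukemia, had 1023 and 538 reads (chromosome 9, 44878951 to 44883300), a difference of −0.90 (−1.05 to −0.75). Mll3 (Kmt2c), which methylates H3K4 at enhancers, had 1577 and 971 reads (−0.67, −0.79 to −0.56). Setd7, a monomethyltransferase of H3K4 and of non-histone proteins, had 1034 and 622 reads over its start (−0.71, −0.85 to −0.56). Weaker Setd7 regions within the gene had 309 and 151 reads (−1.01) and 153 and 74 reads (−1.02). Both lay lower than the start region, by 0.30 and 0.31 on the log2 scale, but the intervals of these differences, −0.63 to 0.02 and −0.76 to 0.12, included 0. Prdm9, which marks meiotic recombination sites with H3K4 methylation in germ cells, was the least lowered of the set, with 250 and 179 reads (−0.46, −0.74 to −0.17).

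The 3 measured genes of the Polycomb repressive complex that methylates H3K27 were lower, and none passed the size rule. Suz12, a scaffold subunit, had 1237 and 633 reads (chromosome 11, 79992001 to 79995750; −0.94, −1.08 to −0.80). Ezh1, the catalytic subunit typical of resting cells, had 400 and 222 reads (chromosome 11, 101225251 to 101226750; −0.82, −1.07 to −0.58). Eed, which binds trimethylated H3K27 and stimulates the enzyme, had 907 and 540 reads (chromosome 7, 89978851 to 89982450; −0.72, −0.88 to −0.57). Level-adjusted differences were −0.20, −0.19 and 0.02, so all lay close to the trend. No region analysed here overlaps Ezh2, the other catalytic subunit, and none overlaps the H3K27 demethylase gene Kdm6b.

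Among the H3K36 methyltransferases Nsd1 differed from its relatives. Setd2, the main H3K36 trimethylase, had 1435 and 729 reads (chromosome 9, 110530651 to 110534400; −0.95, −1.08 to −0.82). Whsc1 (Nsd2) had 1359 and 780 reads (−0.77, −0.90 to −0.65), and Whsc1l1 (Nsd3) 1774 and 1017 reads (−0.78, −0.89 to −0.66), on the trend. Nsd1, a dimethylase of H3K36 whose gene, like Nsd3, is fused to NUP98 in some leukemias, had 656 and 594 reads (chromosome 13, 55210351 to 55213650). Its difference was −0.12 (−0.28 to 0.05). It lay 0.62 above the trend, and 5 of the 43 genes and 20.9% of all genes lay more than 0.5 above it. The interval of Nsd1 does not meet those of the other 3 genes. The Nsd1 region starts 569 bp inside the RefSeq gene, and 2 further regions 7082 and 18482 bp outside it were lower (99 and 52 reads, −0.90; 280 and 191 reads, −0.53).

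The H3K9 methyltransferase genes lay within a narrow range. Setdb2 had 1053 and 537 reads (−0.94, −1.10 to −0.79) and Suv39h2, an enzyme of heterochromatin, 763 and 427 reads (−0.81, −0.99 to −0.64). Setdb1, which silences retroelements, had 359 and 202 reads (−0.80, −1.06 to −0.55). Ehmt1, which with its partner places H3K9 dimethylation, had 666 and 391 reads (−0.74, −0.93 to −0.56). All 4 intervals overlap each other, and all 4 genes lay between 0.01 and 0.21 below the trend.

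Dot1l was lower by more than 2-fold, while the strongest regions of both H4K20 methyltransferase genes were lowered less. Dot1l, the H3K79 methyltransferase needed by MLL-rearranged leukemia, had 877 and 409 reads (chromosome 10, 80754301 to 80758350), 2.11-fold lower in 36N (−1.07, −1.25 to −0.90) and 0.34 below the trend. Mllt10 (AF10), a cofactor of DOT1L and a partner in MLL fusions, had 1316 and 586 reads (chromosome 2, 18063151 to 18066600; −1.14, −1.28 to −0.999). The level-adjusted difference of Mllt10 was −0.40. The other MLL partners were lowered less. Mllt3 (AF9) had 380 and 275 reads (−0.44, −0.67 to −0.21) and Mllt1 (ENL) had 449 and 346 (−0.35, −0.56 to −0.14); both encode readers of acetylated H3. The name rule takes in these 3 Mllt genes, which are no methyltransferases. Suv420h1 (Kmt5b), of H4K20 di- and trimethylation, had 932 and 664 reads (−0.46, −0.61 to −0.32). The strongest region of Setd8 (Kmt5a), which places the first methyl group on H4K20, had 624 and 456 reads (−0.43, −0.60 to −0.25). Intervals of Dot1l and Mllt10 did not reach those of the strongest regions of these 4 genes. At Setd8 this rests on the choice of region, since its other start region, denser in 36S (246.67 against 180.87 reads per kb), was at −0.98 (−1.23 to −0.74), an interval that overlaps that of Dot1l.

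Demethylase genes had the same median as the whole group, with Kdm3a and Kdm4c at the ends. All 9 had a negative difference (median −0.71), 8 with an interval below 0, and 6 lay above the trend. Of the 3804 genes in the interquartile range of the members' levels, 3667 were negative and 93.1% had an interval below 0. Of the same 3804 genes 1701 lay above the trend, as did 53.4% of all genes. Kdm3a, a demethylase of H3K9 mono- and dimethylation, had 681 and 302 reads (chromosome 6, 71631151 to 71633550), 2.21-fold lower in 36N (−1.15, −1.35 to −0.95). The level-adjusted difference of Kdm3a was −0.43. Its paralog Kdm3b had 1173 and 699 reads (−0.72, −0.86 to −0.58), and the intervals of the pair do not meet. The Kdm3a start window is shown because no other start-covering region was lower. It had 40 CpG dinucleotides and no AATC, while a neighbouring start in the same region had 24 and 1 match (chr6:71632637-71632936, minus strand):
Kdm3a: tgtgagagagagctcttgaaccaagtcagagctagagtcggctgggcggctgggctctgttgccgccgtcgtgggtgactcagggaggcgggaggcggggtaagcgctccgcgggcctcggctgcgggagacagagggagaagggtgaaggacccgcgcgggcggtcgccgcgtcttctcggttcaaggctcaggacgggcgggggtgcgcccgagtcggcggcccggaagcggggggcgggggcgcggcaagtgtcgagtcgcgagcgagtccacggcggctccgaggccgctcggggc

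Within the Kdm4 genes, which remove methyl groups from H3K9 and mostly also from H3K36, values ran from lower to hardly different. Kdm4a had 593 and 310 reads (−0.91, −1.11 to −0.71), Kdm4b had 352 and 197 (−0.81, −1.07 to −0.56) and Kdm4d had 382 and 265 (−0.50, −0.73 to −0.27). Kdm4c, which is amplified in several cancers, had 539 and 475 reads (chromosome 4, 74250901 to 74253150), a difference of −0.16 (−0.34 to 0.02). It lay 0.57 above the trend, and its interval does not meet those of Kdm4a and Kdm4b. Kdm5b, an eraser of H3K4 di- and trimethylation, had 858 and 527 reads (chromosome 1, 134559901 to 134562150; −0.68, −0.84 to −0.52), on the trend. Kdm2a, an H3K36 demethylase that binds CpG islands, had 1534 and 1106 reads (−0.45, −0.56 to −0.33).

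Kdm2b differed between its starts. This gene encodes a CpG-island protein that brings Polycomb complexes to DNA, and a short form from an internal start lacks the demethylase domain. The region over the internal starts (chromosome 5, 122898451 to 122901600) had 633 and 379 reads (−0.71, −0.90 to −0.53). The region over the outer starts (122987401 to 122991300) had 424 reads in each library, a deposited difference of 0.03. The outer region exceeded the inner one by 0.74 on the log2 scale, with a counting interval of 0.47 to 1.01 (exact conditional). Weaker regions between them were at 0.30 (68 and 82 reads) and 0.59 (84 and 124 reads). The windows of both are shown for comparison, and the inner (chr5:122900301-122900600) had 49 CpG dinucleotides against 18 in the outer (chr5:122988458-122988757, both on the minus strand), with no AATC in either. A second listed start of the outer region, not printed, had 28 CpG dinucleotides and 1 match:
Kdm2b inner start: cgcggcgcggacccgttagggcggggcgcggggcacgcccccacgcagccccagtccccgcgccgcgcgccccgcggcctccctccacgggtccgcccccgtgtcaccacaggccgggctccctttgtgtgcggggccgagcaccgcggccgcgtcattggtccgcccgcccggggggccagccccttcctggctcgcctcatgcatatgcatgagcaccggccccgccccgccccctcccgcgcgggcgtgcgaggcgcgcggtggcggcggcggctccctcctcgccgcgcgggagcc
Kdm2b outer start: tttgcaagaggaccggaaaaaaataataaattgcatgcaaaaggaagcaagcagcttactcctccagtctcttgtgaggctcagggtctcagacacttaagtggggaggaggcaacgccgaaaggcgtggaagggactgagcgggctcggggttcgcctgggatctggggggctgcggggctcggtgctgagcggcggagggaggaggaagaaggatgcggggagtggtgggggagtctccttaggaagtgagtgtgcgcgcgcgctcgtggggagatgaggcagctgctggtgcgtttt

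Setd8 also had 2 start regions that differed. The region over its first start (chromosome 5, 124439701 to 124441350) had 407 and 202 reads (−0.98), and the strongest region, over later starts (124444501 to 124447950), was at −0.43 as given above. The first was lower by 0.56 on the log2 scale than the second, with an interval of −0.87 to −0.25. The first window (chr5:124439680-124439979, plus strand) held AATC 4 times and 18 CpG dinucleotides, and the second (chr5:124445249-124445548) held GATT once and 51 CpG dinucleotides. In both, every one of these matches lies within a CCAATC or its reverse complement, the letters of a CCAAT box:
Setd8 first start: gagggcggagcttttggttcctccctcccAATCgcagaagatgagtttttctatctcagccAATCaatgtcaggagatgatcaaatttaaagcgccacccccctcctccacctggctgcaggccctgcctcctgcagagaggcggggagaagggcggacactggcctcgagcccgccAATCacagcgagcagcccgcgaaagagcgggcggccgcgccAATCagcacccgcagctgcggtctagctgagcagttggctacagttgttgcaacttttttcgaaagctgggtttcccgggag
Setd8 later start: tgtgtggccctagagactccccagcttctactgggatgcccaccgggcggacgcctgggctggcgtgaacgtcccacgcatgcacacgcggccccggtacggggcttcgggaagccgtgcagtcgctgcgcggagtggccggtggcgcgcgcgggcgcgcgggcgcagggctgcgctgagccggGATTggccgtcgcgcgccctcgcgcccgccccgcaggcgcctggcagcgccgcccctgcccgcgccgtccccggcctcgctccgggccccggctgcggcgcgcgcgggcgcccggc

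**Figure D3:**
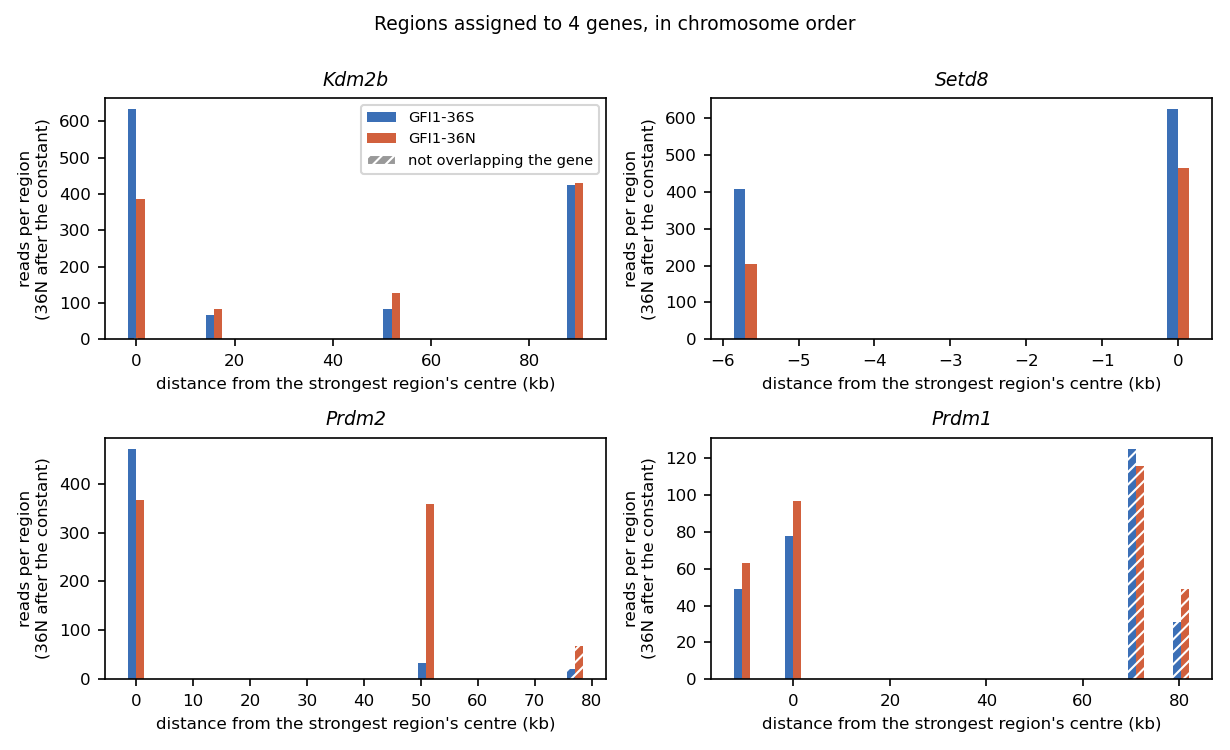
Reads in each region assigned to Kdm2b, Setd8, Prdm2 and Prdm1 in the 36S (blue) and 36N (orange, after the deposited constant) libraries, against the distance in kb from the centre of the gene's strongest overlapping region, in chromosome order. Hatched bars lie outside the gene; Kdm2b shows 1 lowered and 1 unlowered strong region, and Prdm2 a region with 33 reads in 36S and 352 in 36N.

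The PRDM genes, zinc finger regulators of which many have no known methyltransferase activity, held all 3 positive differences on the deposited scale. Over all autosomal genes 2799 of 10655 were positive. Prdm1 and Prdm8 also lie below the median level of all genes, where 14.7% of genes were higher by the size rule. After centring, 4 of the 8 positive genes were not PRDM genes: Setd4 (0.36), Nsd1 (0.27), Kdm4c (0.23) and Mllt1 (0.04). The median deposited difference was −0.37 over the 8 PRDM genes other than Prdm9, which is counted with the H3K4 enzymes, against −0.77 over the 31 genes that are neither Prdm nor Mllt. After adjustment for level 7 of the 8 lay above the trend, against 14 of the 31 and 53.4% of all genes. The PRDM regions were also weaker, with a median of 178.33 reads per kb in 36S against 256.67. Prdm10, Prdm15 and Prdm4 had strong start regions at −0.67 (1245 and 766 reads), −0.64 (927 and 584) and −0.64 (406 and 255), on or near the trend. Prdm16, a factor of blood stem cells and brown fat, had 104 and 78 reads in a region inside the gene (−0.39, −0.83 to 0.05), and no region over its start.

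Prdm11 was the strongest member with more H3K9ac in 36N. It had 328 and 395 reads over its start (chromosome 2, 93045001 to 93046800), 1.23-fold higher in 36N (0.29, 0.08 to 0.51) and 0.98 above the trend. A weaker region within the gene had 110 and 88 reads (−0.30), lower than the start region by 0.59 on the log2 scale (interval −1.07 to −0.12). Prdm8, a developmental repressor, had the largest positive difference, on only 40 and 81 reads (chromosome 5, 98185351 to 98186400; 1.04, 0.48 to 1.63), and was the only member past the size rule upward. The region lies 1054 bp inside the 3′ end of the RefSeq gene, which runs on the plus strand, and over no listed start. The Prdm11 window is shown as the start whose region lay farthest above the trend, with 32 CpG dinucleotides and no AATC (chr2:93046116-93046415, minus strand):
Prdm11: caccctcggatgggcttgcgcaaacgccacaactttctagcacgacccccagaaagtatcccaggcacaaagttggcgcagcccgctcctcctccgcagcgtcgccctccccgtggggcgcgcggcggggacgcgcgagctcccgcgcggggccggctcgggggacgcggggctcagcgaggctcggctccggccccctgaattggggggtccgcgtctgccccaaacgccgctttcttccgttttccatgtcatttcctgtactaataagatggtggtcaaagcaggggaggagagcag

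Prdm1 encodes Blimp-1, a transcriptional repressor that acts in plasma cell and myeloid differentiation. The gene had 78 and 95 reads over an internal RefSeq start (chromosome 10, 44458201 to 44459400, difference 0.31, −0.14 to 0.76). A second region inside the gene had 49 and 62 reads (0.37, −0.20 to 0.94). Both intervals included 0, and a difference could not be detected at these read numbers. A stronger region, with 125 and 114 reads (−0.11, −0.49 to 0.27), lies 443 bp beyond the outer RefSeq end of the gene and was left out by the overlap rule. The table calls it downstream of Prdm1. Over all genes with a strand in RefSeq, 1266 of 1268 regions with that word lie before the gene's start in the direction of transcription, and 1299 of 1304 called upstream lie past its end. The region next to Prdm1 is thus on the start side.

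The largest difference at any region of these genes was at Prdm2. PRDM2 (RIZ) is made in a long form with the PR domain and in a short form, from an internal start, without it. The strongest region, inside the gene (chromosome 4, 143160151 to 143162850), had 471 and 361 reads (−0.36, −0.56 to −0.16). A second region of 1650 bp, over the outer RefSeq end of the gene (143211601 to 143213250), had 33 reads in 36S and 352 in 36N. It was 10.9-fold higher in 36N (3.44, 2.925 to 4.003) and exceeded the strongest region by 3.80 on the log2 scale (3.24 to 4.39). Another region, 25382 bp beyond that end, had 20 and 67 reads (1.77, 1.03 to 2.57). The table calls this region of 20 and 67 reads downstream of Prdm2, which by the same reading puts this end on the start side of the gene. The next region along the chromosome, given to Pdpn, had 33 and 28 reads (−0.21). The second region ranked 17 by difference among 19960 autosomal regions, and 6 among the 9107 at or above its level. It was singled out after its value was seen, and the difference rests on 1 library per genotype.

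In all, 15 of the 43 genes had more than 1 overlapping region, with 20 regions beside the strongest. Of these 20, 9 had a higher difference than the strongest region of their gene, 6 with an interval above 0. After adjustment for level, which differs between weak and strong regions, 6 of the 20 lay above the strongest region and 14 below it. In 3 the interval of the difference lay below 0, at Kdm2a, Prdm11 and Setd8, and in 11 it included 0. The 6 were at Prdm2, Prdm10, Setd3 and, with 3 regions, Kdm2b. In Prdm10 the region had 26 and 41 reads and in Setd3 it had 27 and 32, so both were weak. Level adjustment brought the weak Setd3 region to 0.17 above the trend, against 0.13 for the strong one (1078 and 691 reads, −0.61); the SETD3 protein methylates a histidine of actin. Setd4 had 180 and 173 reads over its start (−0.03, −0.34 to 0.28), 0.41 above the trend.

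**Figure D4:**
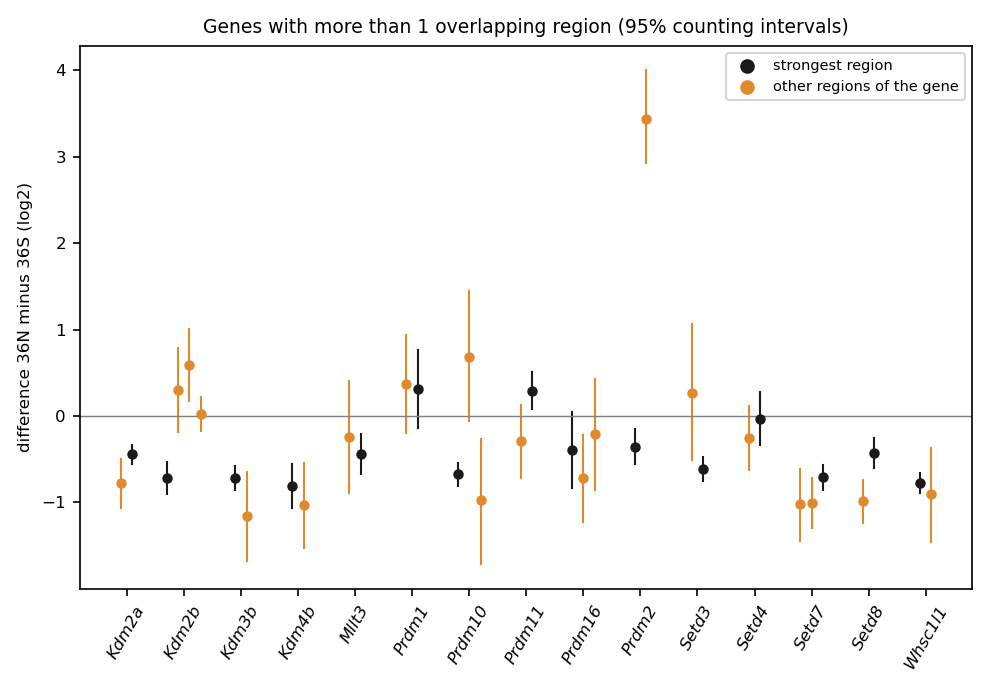
Difference between the libraries (36N minus 36S, log2) with its 95% counting interval at every overlapping region of the 15 genes with more than 1, in chromosome order within a gene. Black marks the strongest region and orange the others; the second Prdm2 region lies at 3.44 and the Kdm2b regions lie on both sides of 0.

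Some enzyme genes are hidden in the table under a neighbour or an older name. By overlap with RefSeq genes, a region given to Ccdc77 covers one end of Kdm5a, an H3K4 demethylase gene also fused to NUP98 in leukemia, with 1310 and 717 reads (−0.84, −0.98 to −0.71). A region given to Dap3 overlaps Ash1l, an H3K36 methyltransferase gene, with 1320 and 606 reads (−1.10, −1.24 to −0.96). Regions given as Wbp7 and Jmjd5 are those of Kmt2b (980 and 548 reads, −0.81) and Kdm8 (388 and 187 reads, −1.03). A region given to Tpmt lies over one end of Kdm1b, an H3K4 demethylase gene, and was higher in 36N with 207 and 250 reads (0.30, 0.03 to 0.57). Such regions can serve both genes of a pair and cannot be split between them. The X-linked Kdm5c (844 and 293 reads, −1.50) and Kdm6a (1863 and 680 reads, −1.43) were left out by the rule.

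Other genes of histone methylation were mostly lower in 36N too. Of 51 listed genes 39 had an overlapping region under the listed name, with a median of −0.67. By the size rule 6 were lower (15.4%, background 12.2%) and none was higher (background 7.42%), and 22 lay below the trend (56.4%, background 46.6%). At levels from the median upward the backgrounds were 15.0% lower, 0.169% higher and 54.7% below the trend. The 10 measured partner subunits of H3K4 complexes had a median of −0.69, led downward by Men1 (menin, 523 and 253 reads, −1.02), and Ncoa6 was their highest (552 and 366 reads, −0.57). Among the 6 partners of the Polycomb enzyme Phf1 was lowest (703 and 315 reads, −1.13) and Phf19 highest (242 and 277 reads, 0.22, −0.03 to 0.48). Of 7 arginine methyltransferase genes Prmt5 was lowest (246 and 125 reads, −0.95) and Prmt2 highest (67 and 116 reads, 0.82, 0.37 to 1.27). Of 9 further lysine methyltransferases and demethylases the demethylase-family gene Jmjd1c was lowest (678 and 300 reads, −1.15) and Setmar highest (50 and 67 reads, 0.45, −0.10 to 1.01). Of 7 readers and partners of methylated H3K9 and H3K36, L3mbtl2 was lowest (566 and 232 reads, −1.26) and L3mbtl3, which binds methylated lysines, highest (390 and 535 reads, 0.48, 0.29 to 0.67).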

How the data were processed

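Leukemic spleen cells of 2 genotypes gave 1 H3K9ac library each. Per the submitters' processing notes, CASAVA 1.8.2, STAR 2.5.0c, SAMtools and the build mm10 were used. The tools for calling and counting regions were not given in the sources used here. Log2 values per region, not divided by length, were deposited by the authors. Taken back to a linear scale they were whole reads in 36S (13 regions at a floor, set to 0), and whole reads multiplied by 1.02 in 36N, with distances from whole reads of at most 0.0022 and 0.0045. Total depth is not known, and no input library was used here. Intervals, differences and the trend (lowess, fraction 0.3, autosomes) were computed in Python 3.11.15 with scipy 1.17.1 and statsmodels 0.14.6, and were checked on simulated data. Symbols turned into dates (10, in 19 regions) were left out. All 43 members matched RefSeq genes, and sequences are RefSeq's (GRCm38.p6). Members, lists and tests were chosen with earlier results of these data known. Named in full were the highest and lowest gene of each role group, those past 1 log2 unit or more than 0.5 from the trend, and leukemia-related genes fixed by name; Prdm2's other regions, Kdm2b, Setd8, the sequences of the last 2, and genes found by RefSeq overlap were chosen after their values were seen. One gene found by RefSeq overlap is not reported here. Alternatives covered scaling, level, size rule, choice of region and of members.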

Additional observations from a re-analysis of the deposited data

How the results depend on the processing

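The median difference of −0.71 was −0.32 when centred on the median region, 0.008 after quantile normalization, 0.0191 after subtraction of the level trend, −0.68 with reads summed over a gene's regions and −0.77 without the Mllt and Prdm names. The median of all autosomal regions was −0.39, and centring on it left the sign in place, while both level-dependent steps brought the median to about 0. The count of 4 lower genes became 0 under centring, quantile normalization and the trend, 28 at a 1.5-fold rule and 7 with RefSeq-assigned genes added (chosen after seeing the data). The 1 higher gene, Prdm8, became 2 with any orientation (Prdm13 added, 13 and 58 reads). It became 0 where the region had to cover a RefSeq start, with only members at or above the median level, and without the Mllt and Prdm names. The choice of region by reads per kb, reads summed over regions and leaving out the Mllt names kept both counts within 1.5 times. Single genes moved more: with reads summed Prdm2 turned from −0.36 to 0.53, Kdm2b went from −0.71 to −0.23 and Setd8 from −0.43 to −0.62, with 39 negative and 4 positive genes, and by reads per kb Setd8 went to −0.98. None of the 5 genes past the size rule changed sign under centring, quantile normalization or the trend. No paired analysis was possible because each genotype has 1 library. Depth limits the weak PRDM regions most: at 40 and 81 reads the Prdm8 interval spans 0.48 to 1.63.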

Other observations

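Some weak regions of PRDM genes beyond the 43 strongest ones held more reads in the 36N library. A region 2388 bp from the outer RefSeq end of Prdm13, which has no overlapping region, had 13 and 58 reads (2.18, 1.30 to 3.18), and it lay 2.06 above the trend. Mecom, whose product is also called PRDM3, had 17 and 95 reads (2.51, 1.75 to 3.35). These were picked after their values were seen, and 14.7% of autosomal genes below the median level were higher by 1 log2 unit or more. Other weak PRDM regions were lower, with 52 and 26 reads in Prdm10 (−0.97, −1.71 to −0.27) and 92 and 55 in Prdm16 (−0.72, −1.22 to −0.22). Afdn (Mllt4), hidden under Tcte2, had 50 and 91 reads (0.89, 0.38 to 1.42).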
